A study of Homo sapiens with 6 samples.

Results

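The genes described here build and fill the vesicles that move between the endoplasmic reticulum (ER) and the Golgi, together with the channel through which new proteins enter the ER. Membership goes by symbol: every gene whose symbol starts with SEC and a digit, the COPI coat subunits from COPA to COPZ2, all TMED, TRAPPC and KDELR genes, and the GTPases ARF1, ARF3, ARF4, ARF5 and ARF6. This gave 73 of the 16670 genes in the deposited table. The data are gene-level RNA-seq values from A549, an established human non-small cell lung cancer line, in 6 libraries. Every culture received alisertib, which blocks the mitotic kinase Aurora A, for 1 week to induce senescence. The 3 untreated libraries come from such cells with no further drug. The 3 salinomycin libraries come from such cells treated for another 48 h with 2.5 µM salinomycin, a polyether antibiotic that carries cations across membranes. The labels call the libraries of a group biological replicates without naming their cultures, so p-values measure only the spread between these libraries. Both groups hold alisertib and 1 cell line, and no library without alisertib was analysed here. Whether untreated cells got a vehicle is not given in the labels, so its effect cannot be told apart from that of salinomycin.

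Proteins bound for secretion enter the ER through the SEC61 channel, where signal peptidase removes their signal peptide. The COPII coat, an inner SEC23-SEC24 layer and an outer SEC13-SEC31 layer, then buds vesicles towards the Golgi from exit sites scaffolded by SEC16. ARF GTPases recruit the COPI coat, which returns material to the ER. TMED (p24) proteins load cargo, KDEL receptors retrieve escaped ER residents, and TRAPP complexes tether arriving vesicles and activate RAB GTPases.

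The recovered depth was 13539959 to 19641149 reads a library. Correlations of log2 values across genes were 0.993 to 0.9952 between libraries of a group and 0.8413 to 0.846 between groups. Each value below is in normalised units, the deposited value less 1, scaled for composition by trimmed mean of M-values (TMM). Changes are log2 differences of units + 1, tested with limma across 13049 genes and adjusted by the Benjamini-Hochberg method, and "rose" and "fell" mean an adjusted p under 0.05. All changes are relative ones, set against the rest of a library's genes. In bulk RNA, fewer cells of a kind and less RNA per cell cannot be told apart. Of 5 epithelial genes that mark A549, EPCAM, KRT8, KRT18 and CDH1 fell and KRT19 rose, and their summed units went from 152080-167700 to 33824-37954. The summed leukocyte markers went from 193-226 to 47.8-72.3 units (3 of 6 listed genes measured). Most of that sum was CD14, which fell from 201 ± 16 to 30.2 ± 9.88 units, whereas LYZ rose from 6.40 ± 4.62 to 19.6 ± 2.52 units and CD68, too low to test, went from 2.14 ± 1.86 to 9.34 ± 4.70 units (SD, n = 3 each). The endothelial sum went from 11.7-20.5 to 7.51-14.8 (4 of 5 in the table, KDR absent). The fibroblast sum went from 600.1-823 to 412-449.9, and all 4 tested genes fell. Most of the sum was COL1A1, which went from 667 ± 128 to 416 ± 18.3 units (SD, n = 3 each). COL3A1 went from 41.1 ± 10.2 to 1.87 ± 0.937 units (SD, n = 3 each). COL1A2 and DCN were too low to test, DCN with 4 recovered reads over the untreated and 0 over the salinomycin libraries. The part of these marker shifts in the results below was not tested.

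More of the trafficking genes rose than fell after salinomycin. Rises outnumbered falls in the coats, the exit-site scaffold, the ARF GTPases, the KDEL and TMED receptors, the translocon, SEC22 and TRAPP. They did not in signal peptidase or the SEC14-like genes. Some of these counts are too small to tell from the shares over all tested genes given below. SEC22 had 2 rises and 1 fall, the TRAPP core 5 rises and 3 falls among 9 genes, and TRAPPII 1 rise among 3. Of the 66 members that passed the filter on low values, 48 rose, 13 fell and 5 did not pass the test. Among all tested genes 41.6% rose and 40.4% fell. Rises of at least 2-fold were made by 21 members and falls of at least 2-fold by 5, beside 16.7% and 18.5% of all tested genes. In 48 members every salinomycin library lay above every untreated one, in 12 every one lay below, and in 6 the groups overlapped; the shares over all tested genes were 42.4% above and 40.7% below. The median log2 change of the tested members was 0.65, beside 0.021 over all tested genes. No member passed the filter through 1 group only. Together the 73 genes took 0.700% ± 0.00641 to 1.45% ± 0.00189 of all units (SD, n = 3 each). TMM scaling cancels out of such a share, which rests on library totals alone. The groups are far apart on that share, with the untreated libraries at 0.703%, 0.705% and 0.693% and the salinomycin libraries at 1.45% each.

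**Figure D1:**
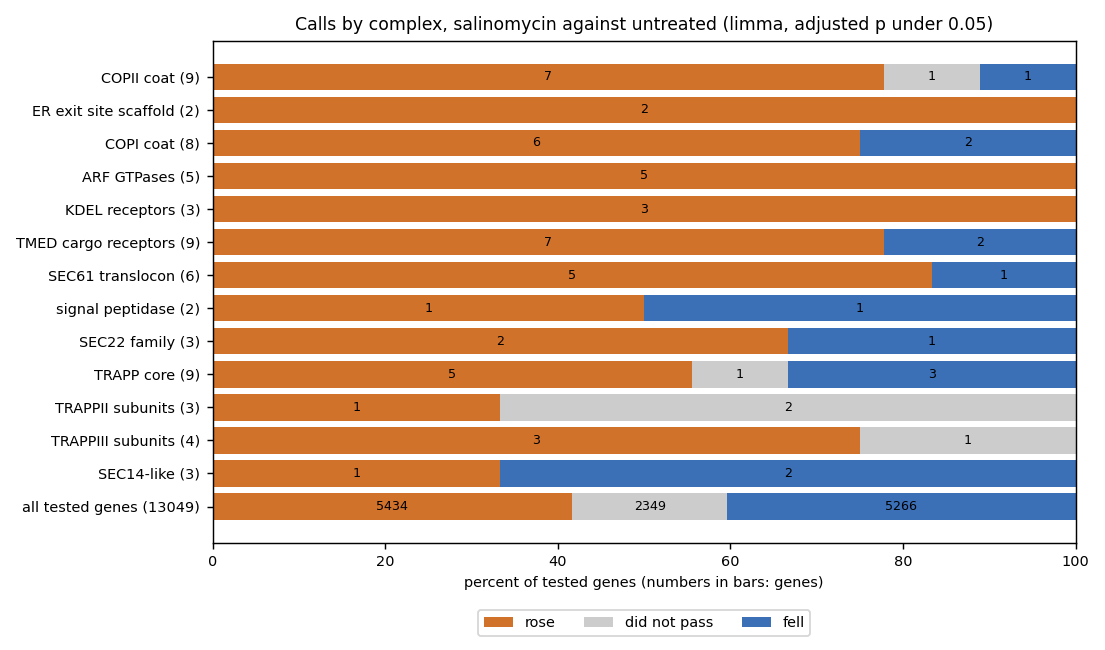
Share of tested genes of each complex that rose, fell or did not pass (horizontal axis, percent; limma, adjusted p under 0.05), with gene numbers in the bars and in parentheses, and all 13049 tested genes as the last bar. All 5 ARF genes, all 3 KDEL receptors and both tested exit-site genes rose, while 5 of 9 TRAPP core and 1 of 3 TRAPPII subunits rose.

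The members' promoters were read for short motifs of the unfolded protein and Golgi stress responses. RefSeq start-site windows on GRCh38.p14, 250 bases before to 50 after a start, were matched by symbol for 65 members (85 windows). No window was given for ARF4, KDELR2, SEC24D, TMED4, TMED9, TRAPPC8, TRAPPC9 and TRAPPC14. The shared core ACGTGGC, known from the Golgi stress response element (GASE), was found on either strand in 20 of 65 members (30.8%), against 3.95% of the 27305 genes with a window. It was present in 8 of the 18 members with a window that rose at least 2-fold and in 12 of the 47 others. Those 47 include members that rose by less, fell or were not tested, so they are not a group without a rise. TGACGTGG, the core of the unfolded protein response element (UPRE), was found in 10 members (15.4%), against 0.927% of genes. Both motifs overlap each other and contain CCACG on 1 strand, which on its own was found in 76.9% of members and 42.1% of genes. The ER stress elements are ERSE (CCAAT and CCACG with any 9 bases between) and ERSE-II (ATTGG and CCACG with any 1 base between). They were found in 0 members, against 0.0916% and 0.0696% of genes. At such shares a match among 65 members was unlikely, so the 0 cannot show a lack of these elements. The cyclic AMP element TGACGTCA was found in TRAPPC1 and TRAPPC2B alone among members, against 2.25% of genes. The 27305 genes outnumber the 16670 of the deposited table, so the shares of members and of genes are not matched for expression. A match describes letters in these windows and shows neither binding nor use.

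Stretches of the SEC22A and KDELR3 promoters, members that rose 2.73-fold and 4.69-fold, show the motif in its setting upstream of the start. Each is written 5′ to 3′ along the gene's strand with the matched letters in capitals. The SEC22A motif begins 56 bases and the KDELR3 GASE match 47 bases before the start.
SEC22A (chr3:123201793-123201942, plus strand): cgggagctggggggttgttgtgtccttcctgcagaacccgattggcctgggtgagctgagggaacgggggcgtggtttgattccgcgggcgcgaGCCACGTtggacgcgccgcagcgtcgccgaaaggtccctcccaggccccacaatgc
KDELR3 (chr22:38467912-38468061, plus strand): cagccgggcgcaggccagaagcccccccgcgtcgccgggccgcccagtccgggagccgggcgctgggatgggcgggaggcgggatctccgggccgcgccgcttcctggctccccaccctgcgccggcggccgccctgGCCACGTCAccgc
Short cores around the match in 5 further members that rose at least 2-fold, on the strand of each gene, show both orientations of the same letters.
ARF1 (chr1:228082684-228082710, plus strand): ggaggcgcTGACGTGGCcgccgtcaga
SEC13 (chr3:10321073-10321099, minus strand): gccgggagctGCCACGTccgagacctg
SEC24A (chr5:134648598-134648624, plus strand): agagtcggTGACGTGGCggcgaggccg
SEC24A (chr5:134648731-134648757, plus strand): agccggaagtGCCACGTgtcctgattg
SEC63 (chr6:107958265-107958291, minus strand): cgttgcgctcGCCACGTctcccttagc
SEC16A (chr9:136484710-136484736, minus strand): tggccctggtGCCACGTCAgccggact
SEC24A holds 2 matches in opposite orientations. In ARF1, the upstream SEC24A match, SEC16A and KDELR3 the capitals span the GASE and UPRE letters together. The SEC16A match lies after the annotated start, as does that of SEC13 counted from 1 of its 2 starts. In ARF1, SEC13, SEC24A and SEC63 an exon of the GENCODE annotation covers a match.

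The COPII coat had 7 rises among 9 genes, 1 fall and 1 gene that did not pass, and its median log2 change was 0.87. The SEC24 proteins of the inner layer bind cargo, and 3 of the 4 rose. SEC24A (chromosome 5, 134648789 to 134727823) measured 621, 650.1 and 733 units in the untreated libraries and 2693, 2585 and 2291 with salinomycin. Its lowest salinomycin library lay far above its highest untreated one, a 3.77-fold rise (log2 1.92 ± 0.0765 SE, limma adjusted p = 3.96e-10). Of its exon bases 5.53% are shared with other genes, among them SAR1B on the opposite strand, and whether counting used strand is not given in the sources used here. SEC24D measured 859, 883 and 951 units in the untreated libraries and 3159.7, 3251 and 3170.1 with salinomycin. Both groups were tight and the rise was 3.56-fold. SEC24C went from 3623, 3639 and 3651 to 6048, 6279.8 and 6080.2 units, and 42.6% of its exon bases are shared with another annotated gene. Its groups did not overlap and its rise was 1.69-fold. SEC24B measured 803, 858 and 797 units in the untreated libraries and 872, 870.1 and 815 with salinomycin. Those groups overlapped, with a log2 change of 0.06 (95% interval -0.07 to 0.19, limma adjusted p = 0.389), and SEC24B passed as a rise with scaling by library total (log2 0.25).

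SEC13, an outer-layer protein that also sits in the nuclear pore, measured 2369, 2248 and 2170.4 units in the untreated libraries and 6902, 7251 and 7758 with salinomycin. Every salinomycin library was high, a 3.23-fold rise (log2 1.69 ± 0.0562 SE). Its outer-layer partner SEC31A rose 1.83-fold. The related SEC31B went the other way, with 329, 382 and 327 units in the untreated libraries and 133, 109.7 and 107 with salinomycin. It fell 2.95-fold (log2 -1.56 ± 0.112 SE). Per kilobase of transcript, SEC31B went from 8.04% ± 0.436 to 1.59% ± 0.174 (SD, n = 3 each) of the SEC31 total. SEC23 proteins stimulate the GTPase of SAR1. SEC23B measured 2396, 2511 and 2360.3 units in the untreated libraries and 5502, 5866 and 5821 with salinomycin. All 3 salinomycin libraries were high, a 2.36-fold rise, against 1.35-fold for SEC23A.

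Both tested exit-site genes rose. SEC16A, the scaffold on which COPII assembles, measured 2646, 2952 and 3218 units in the untreated libraries and 8771, 8810.3 and 7924 with salinomycin. SEC23IP, a SEC23-binding protein of exit sites, measured 1186, 1379 and 1262 units in the untreated libraries and 3225, 3371 and 3095 with salinomycin. Neither overlapped between groups, and the rises were 2.90-fold and 2.53-fold. SEC16B was too low to test, with 14 recovered reads over the untreated and 11 over the salinomycin libraries.

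**Figure D2:**
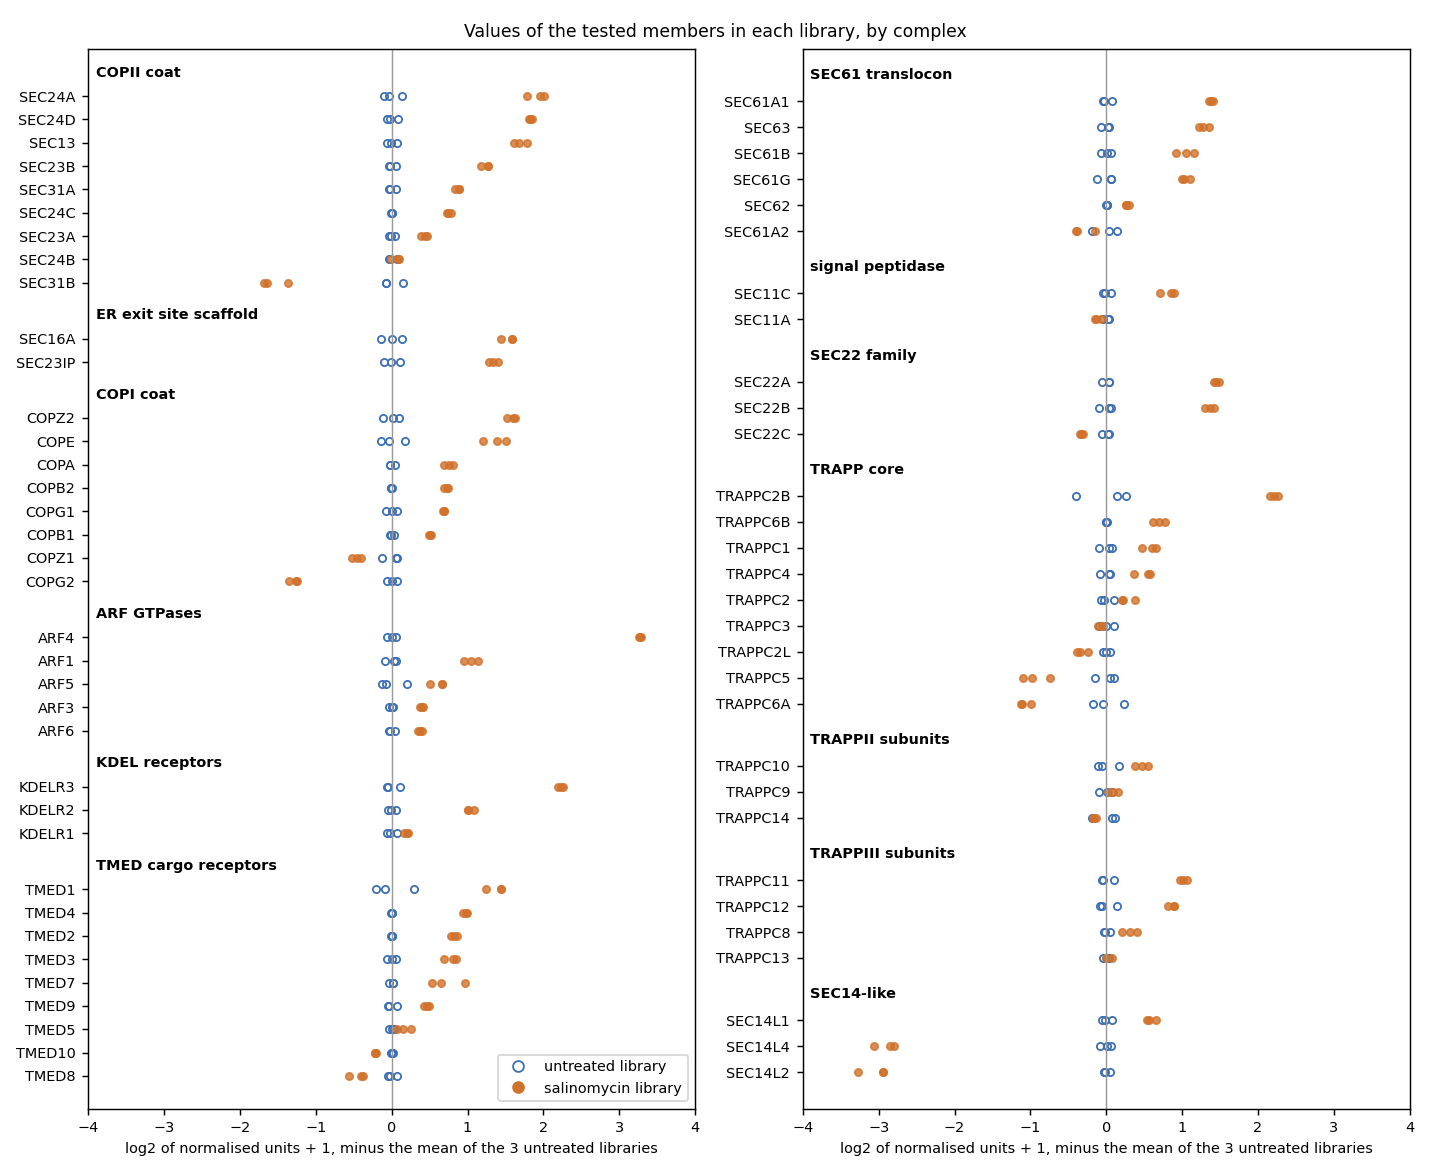
Each of the 66 tested genes (rows, by complex) in each library, as the log2 of normalised units + 1 less the mean of the 3 untreated libraries (horizontal axis); open blue circles are untreated and filled orange circles salinomycin libraries. ARF4 and KDELR3 lie farthest right, SEC14L2 and SEC14L4 farthest left, and in TRAPPC9, TRAPPC13, TRAPPC3, TRAPPC14, SEC24B and SEC61A2 the circles of the 2 groups overlap.

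The COPI coat had 6 rises and 2 falls among 8 genes (median log2 change 0.70). COPA, the alpha subunit, measured 5851, 6164 and 5867 units in the untreated libraries and 10102, 10426 and 9651 with salinomycin. It rose 1.69-fold. COPB1, COPB2 and COPG1, the beta, beta-prime and gamma-1 subunits, rose between 1.42-fold and 1.65-fold. COPE, the epsilon subunit, measured 652, 522 and 561 units in the untreated libraries and 1328, 1512 and 1638 with salinomycin. Its libraries spread more than those of COPA but the groups stayed apart, a 2.58-fold rise, and 21.8% of its exon bases are shared with another annotated gene.

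The 2 subunits that exist as paralogs changed in opposite directions within each pair. COPG2 measured 878, 920.3 and 839.8 units in the untreated libraries and 369, 342 and 365 with salinomycin and fell 2.45-fold (log2 -1.29 ± 0.0665 SE), while COPG1 rose 1.61-fold. Of COPG2's exon bases 11.6% are shared, mainly with MEST on the opposite strand. For the zeta subunits the order was reversed. COPZ2 measured 322, 304 and 279.6 units in the untreated libraries and 867, 919 and 934 with salinomycin and rose 3.00-fold. COPZ1 measured 4695, 4648 and 4086 units in the untreated libraries and 3099, 3252 and 3372 with salinomycin and fell 1.38-fold. Per kilobase of transcript COPZ2 went from 5.67% ± 0.140 to 19.9% ± 0.157 (SD, n = 3 each) of the zeta total with the median coding-transcript length, and from 18.2% to 48.1% with the union of exons, so its share depends on the length used.

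All 5 ARF genes rose, with a median log2 change of 0.61, and ARF4 by the largest factor. ARF4, a class II ARF at the ER-Golgi boundary (chromosome 3, 57571363 to 57598220), measured 2473, 2396 and 2288 units in the untreated libraries and 23134, 22806 and 23289 with salinomycin. The libraries of each group lay close together and the groups differed by 9.67-fold (log2 3.27 ± 0.0475 SE, limma adjusted p = 2.65e-13). ARF1, the main recruiter of COPI, measured 5816, 5288 and 5738 units in the untreated libraries and 10904, 11561 and 12307 with salinomycin. It rose 2.06-fold. ARF3, ARF5 and ARF6, which act at the trans-Golgi, the early secretory pathway and the cell surface, rose 1.31-fold, 1.53-fold and 1.30-fold. Per kilobase of transcript, ARF4 went from 17.7% ± 0.440 to 56.3% ± 0.788 (SD, n = 3 each) of the ARF total. ARF4 was below ARF1 and ARF3 in each untreated library on that scale and above both in each salinomycin library. With exon-union lengths ARF4 was above ARF3 on average in both groups, and its share went from 23.3% to 62.6%. The summed ARF genes took 0.0821% ± 0.00193 to 0.282% ± 0.00385 of all units, again a share of library totals.

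All 3 KDEL receptors rose, by unequal amounts. KDELR3 (chromosome 22, 38468062 to 38483447) measured 745, 659.6 and 669 units in the untreated libraries and 3164, 3233 and 3317 with salinomycin. All salinomycin libraries were high, a 4.69-fold rise, and per kilobase it was still the lowest of the 3 in every library. KDELR2 measured 4201, 4382 and 4060.2 units in the untreated libraries and 8502, 8478 and 8901 with salinomycin. It rose 2.05-fold. KDELR1 measured 8199.7, 7458 and 7688 units in the untreated libraries and 8702, 8991 and 8921 with salinomycin. Its groups were closest, with a rise of 1.14-fold (log2 0.19 ± 0.0501 SE, limma adjusted p = 0.00398), which did not pass with upper-quartile scaling (log2 0.10). Per kilobase the KDELR3 share of the family went from 6.63% ± 0.231 to 18.8% ± 0.0968 (SD, n = 3 each), and that of KDELR1 from 63.0% ± 1.36 to 43.5% ± 0.603 (SD, n = 3 each).

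**Figure D3:**
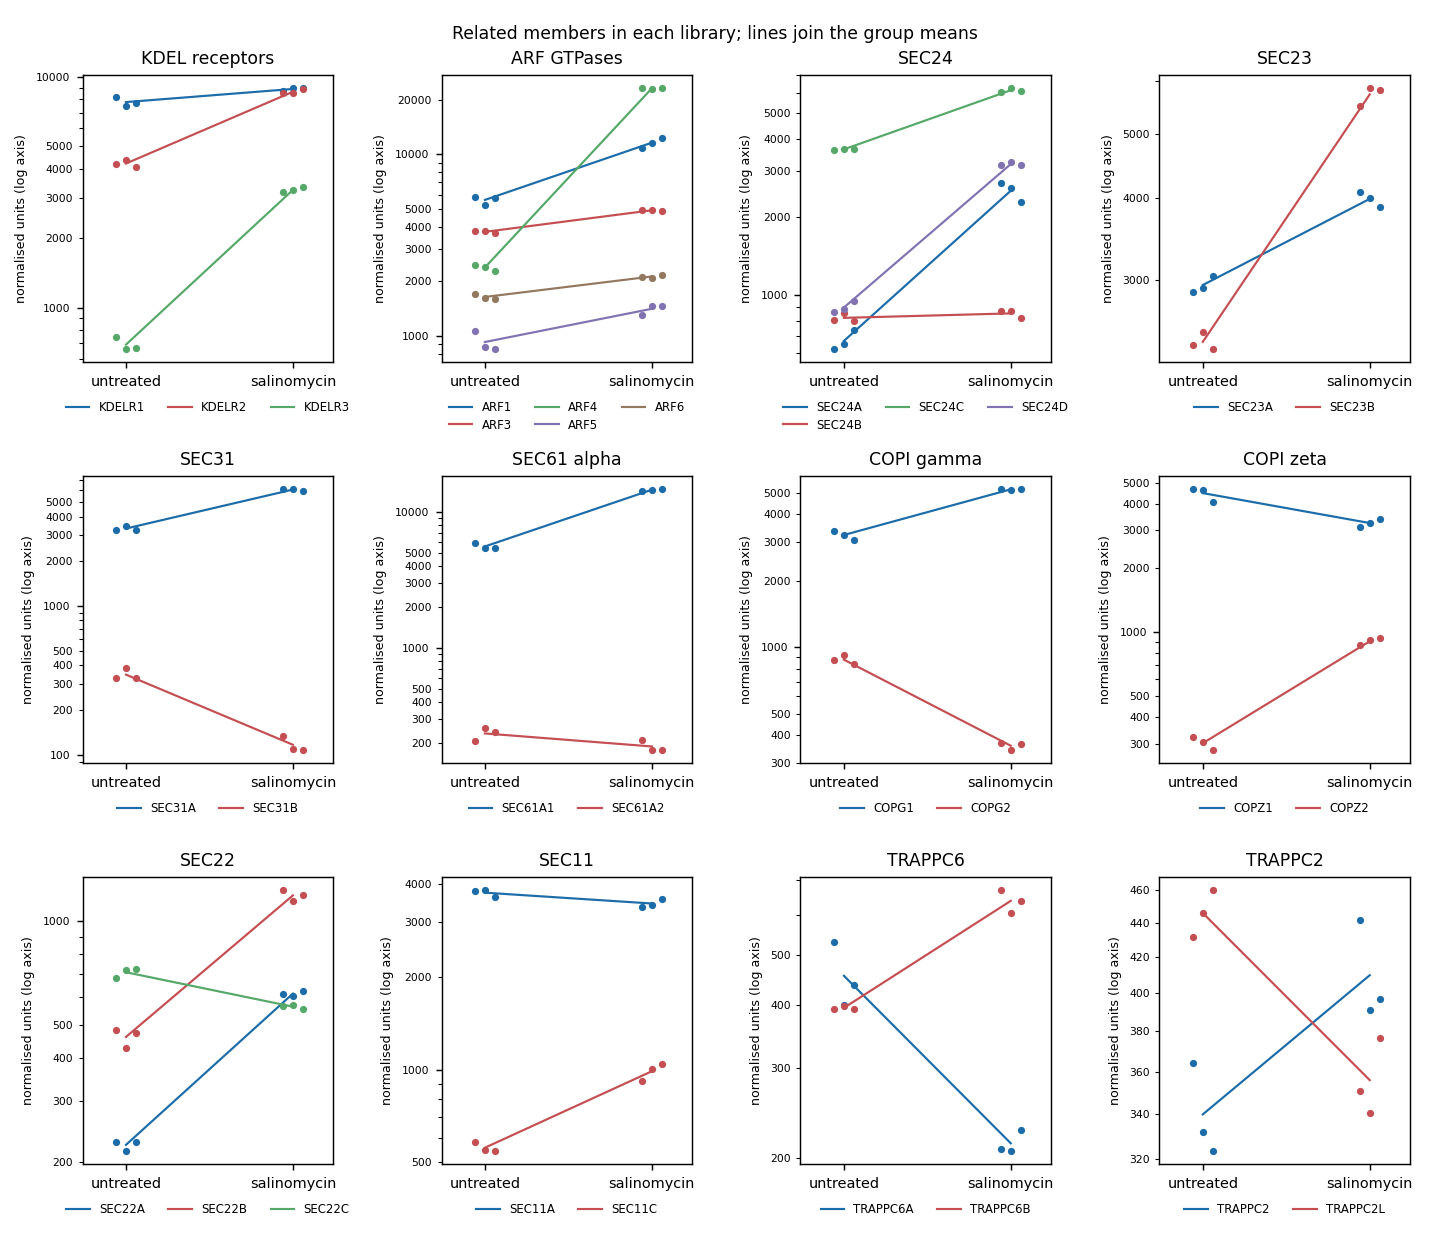
Normalised units (vertical log axes) of related genes in each library of the 2 groups, 1 panel per family; points are libraries and lines join the group means. The lines of SEC31A and SEC31B, COPG1 and COPG2, COPZ1 and COPZ2, and TRAPPC6A and TRAPPC6B slope in opposite directions. Shallower downward lines of SEC61A2, SEC11A, SEC22C and TRAPPC2L also run against the rising lines of their panels. The ARF4 line is the steepest of its panel.

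Among the TMED cargo receptors 7 of 9 tested genes rose and 2 fell (median log2 change 0.72). TMED1, a gamma-class p24 protein, measured 303, 213 and 233 units in the untreated libraries and 584, 671 and 672 with salinomycin. Its untreated libraries were uneven, but none reached a salinomycin library, and the rise of 2.59-fold was the only one of at least 2-fold in the family. TMED2, the beta-class member, measured 4547, 4594 and 4595 units in the untreated libraries and 8304, 7882 and 8098 with salinomycin. It rose 1.77-fold. TMED3, TMED4, TMED5, TMED7 and TMED9 rose between 1.12-fold (TMED5) and 1.96-fold (TMED4). TMED5 did not pass with upper-quartile scaling (log2 0.08), under the replicate block (0.16), without untreated replicate 1 (log2 0.16) or 2 (0.14), or without salinomycin replicate 1 (0.11) or 3 (0.16). Of TMED7's exon bases 24.9% are shared, chiefly with the read-through gene TMED7-TICAM2. TMED8 measured 649, 662 and 702 units in the untreated libraries and 508, 514 and 455 with salinomycin and fell 1.36-fold. TMED10, the delta-class partner of TMED2, fell 1.16-fold from 4469, 4387 and 4421 to 3829, 3815 and 3801 units. The fall of TMED10 did not pass when libraries were scaled by total alone (log2 -0.02). TMED6 was too low to test, with 1 recovered read over the untreated and 5 over the salinomycin libraries.

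The translocon group had 5 rises and 1 fall among 6 genes (median log2 change 1.04). SEC61A1, the channel-forming alpha subunit (chromosome 3, 128051641 to 128071683), measured 5854, 5435 and 5374 units in the untreated libraries and 14194, 14498 and 14745 with salinomycin. Its salinomycin libraries all lay far above the untreated ones, and it rose 2.61-fold (log2 1.38 ± 0.050 SE, limma adjusted p = 1.74e-10). The small subunits moved by nearly equal factors. SEC61B measured 1176, 1068 and 1137 units in the untreated libraries and 2139.5, 2335 and 2517 with salinomycin. SEC61G measured 633, 629.8 and 555 units in the untreated libraries and 1205, 1233 and 1295 with salinomycin. Neither gene overlapped between groups, and the rises were 2.06-fold and 2.05-fold. SEC63, which couples the channel to the chaperone BiP, measured 1219, 1317 and 1305 units in the untreated libraries and 3272, 2977 and 3094 with salinomycin. It rose 2.43-fold, while its partner SEC62 rose 1.21-fold. SEC61A2, the second alpha gene, measured 206, 259.6 and 241 units in the untreated libraries and 211, 177 and 179 with salinomycin. Those groups overlapped, and its fall of 1.24-fold (limma adjusted p = 0.0214) did not pass with scaling by library total (log2 -0.12). It did not pass either without untreated replicate 2 (log2 -0.24) or 3 (-0.29), or without salinomycin replicate 2 (-0.28) or 3 (-0.29).

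The 2 catalytic signal peptidase genes differed. SEC11C measured 582, 550.1 and 543 units in the untreated libraries and 916, 1006 and 1041 with salinomycin and rose 1.77-fold. SEC11A measured 3785, 3825 and 3615 units in the untreated libraries and 3373, 3404 and 3577 with salinomycin. Its log2 change was -0.12 ± 0.0482 SE (limma adjusted p = 0.0412), and its sign turned to 0.07 with scaling by library total. It did not pass under the replicate block (log2 -0.12), by limma-voom (-0.10), without untreated replicate 1 (log2 -0.11) or 2 (-0.10), or without salinomycin replicate 1 (-0.10) or 2 (-0.11).

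In the SEC22 family 2 genes rose and 1 fell. SEC22B, the SNARE that drives fusion between ER and Golgi membranes, measured 482, 429 and 472 units in the untreated libraries and 1229, 1138 and 1184 with salinomycin. SEC22A measured 229, 215 and 229 units in the untreated libraries and 614, 604 and 628 with salinomycin. Both were high in all salinomycin libraries and rose by 2.57-fold and 2.73-fold. SEC22B has near-identical pseudogene copies, so its level is uncertain where reads were divided between them. SEC22C measured 683, 721 and 723 units in the untreated libraries and 565, 571 and 556 with salinomycin and fell 1.26-fold, a fall that did not pass with scaling by library total (log2 -0.14).

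Of the 16 tested TRAPP subunits 9 rose, 3 fell and 4 did not pass (median log2 change 0.29). In the core 5 of 9 rose and 3 fell, beside 41.6% and 40.4% of all tested genes. TRAPPC2B measured 63.8, 69.2 and 43.7 units in the untreated libraries and 262, 281 and 272 with salinomycin, a 4.64-fold rise. It is a near-identical copy of TRAPPC2, so reads could be assigned to either and its level is uncertain; TRAPPC2 itself rose 1.21-fold, which did not pass with upper-quartile scaling (log2 0.18). TRAPPC1, a core subunit, measured 2615, 2539 and 2317 units in the untreated libraries and 3434, 3785 and 3932 with salinomycin. It rose 1.49-fold, and TRAPPC4 rose 1.41-fold. TRAPPC6A measured 529.7, 399 and 437 units in the untreated libraries and 208, 206 and 227 with salinomycin and fell 2.11-fold. Its paralog TRAPPC6B rose 1.62-fold, though 76.9% of TRAPPC6B's exon bases are shared with an annotated gene on the opposite strand. TRAPPC5 was near the filter, with 25.9, 29.8 and 30.9 units in the untreated libraries and 13.0, 14.1 and 16.9 with salinomycin, and fell 1.92-fold. TRAPPC2L fell 1.25-fold, which did not pass with scaling by library total (log2 -0.13), and TRAPPC3 had a log2 change of -0.07 (95% interval -0.21 to 0.07) and passed as a fall with upper-quartile scaling (log2 -0.15).

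Subunits that belong to 1 form of the complex are described apart. Of the TRAPPIII subunits, TRAPPC11 measured 652, 645 and 723 units in the untreated libraries and 1359, 1401 and 1319 with salinomycin. It rose 2.02-fold, with TRAPPC12 at 1.82-fold and TRAPPC8 at 1.24-fold. TRAPPC13 had a log2 change of 0.02 (95% interval -0.14 to 0.18), and it passed as a rise with scaling by library total (log2 0.21). Of the TRAPPII subunits, TRAPPC10 measured 449, 466 and 542 units in the untreated libraries and 710.1, 671 and 629 with salinomycin and rose 1.38-fold. TRAPPC9, a large TRAPPII subunit, measured 1486, 1379 and 1556 units in the untreated libraries and 1491, 1634 and 1561 with salinomycin. Its groups overlapped (log2 0.08, 95% interval -0.05 to 0.22), as did those of TRAPPC14 (log2 -0.16, 95% interval -0.38 to 0.06). TRAPPC14 passed as a fall with upper-quartile scaling (log2 -0.24) and without untreated replicate 3 (log2 -0.25). TRAPPC9 passed as a rise with scaling by library total (log2 0.28).

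The SEC14-like genes share a name with the yeast lipid-transfer protein Sec14 and encode lipid-binding proteins, not coat subunits. SEC14L2, also known as a tocopherol-associated protein, measured 626, 596 and 599.7 units in the untreated libraries and 62, 77.8 and 77.9 with salinomycin. SEC14L4 measured 382, 359 and 397 units in the untreated libraries and 44.4, 53.4 and 51.6 with salinomycin. In both every salinomycin library was low, and the falls of 8.31-fold and 7.49-fold were the largest among the 66 tested members. SEC14L1 measured 1485, 1455 and 1589 units in the untreated libraries and 2179, 2368 and 2233 with salinomycin and rose 1.5-fold. SEC14L3, SEC14L5 and SEC14L6 were too low to test, with 7, 26 and 4 recovered reads over the untreated and 0, 15 and 0 over the salinomycin libraries. TRAPPC3L (1 and 0 reads) and TMED7-TICAM2 (0 and 1) were too low as well.

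Related genes were compared inside each library as the log2 ratio of 2 members, a measure that library scaling leaves nearly untouched. Over 23 pairs, the ratios of the 2 groups did not overlap in 20, each with p = 0.1 in a two-sided exact permutation test, the smallest that 3 against 3 libraries can give (0.115 after Benjamini-Hochberg adjustment over the 23 pairs). Single genes separated the groups about as often, with 42.4% of all tested genes above and 40.7% below. The ratio of ARF5 to ARF4 changed most, by -2.66 on the log2 scale. SEC31B over SEC31A changed by -2.43, COPG2 over COPG1 by -1.98 and SEC24B over SEC24A by -1.86. COPZ2 over COPZ1 changed by 2.05, KDELR3 over KDELR1 by 2.04 and TRAPPC6B over TRAPPC6A by 1.77. The 3 pairs with overlapping ratios were SEC24D over SEC24A (-0.09, exact p = 0.3), SEC22B over SEC22A (-0.09, exact p = 0.2) and TMED7 over TMED3 (-0.07, exact p = 0.8). Per kilobase of transcript, the SEC24 family shifted towards its A and D members: SEC24D went from 21.7% ± 0.710 to 34.9% ± 0.565 (SD, n = 3 each) and SEC24C from 54.8% ± 0.939 to 41.7% ± 0.705 (SD, n = 3 each).

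Partner genes outside the symbol rule were read from 9 lists drawn up by function, with earlier results of these data known. Their counts are therefore no independent evidence for those of the members. Of 69 tested, 50 rose, 13 fell and 6 did not pass, and 19 rose and 4 fell at least 2-fold. Of all tested genes 41.6% rose and 40.4% fell, and 16.7% and 18.5% did so at least 2-fold. All 3 genes of the COPII GTPase switch rose, and SAR1B, the GTPase that starts the coat, went from 1308 ± 19.0 to 3417 ± 40.7 units (SD, n = 3 each). Of 6 exit-site organisers 5 rose, with MIA3, a collagen cargo receptor, from 1547 ± 64.4 to 5209.7 ± 165 units. PEF1, the smallest of these rises (log2 0.14), did not pass with median-of-ratios (log2 0.14) or upper-quartile scaling (0.06), under the replicate block (0.14), or without untreated replicate 1 (0.16), 2 (0.13) or 3 (0.14) or salinomycin replicate 2 (0.14) or 3 (0.09). All 7 genes of the COPI delta subunit and ARF regulators rose, with ARFGAP1, which stimulates the GTPase of ARF1, from 2249 ± 256 to 4827 ± 251 units; ARFGAP2 did not pass with upper-quartile scaling or without salinomycin replicate 3 (log2 0.11 and 0.14). In these 3 lists no gene fell.

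The other 6 lists held both rises and falls. Among other cargo receptors 6 rose and 4 fell, from LMAN1, a lectin receptor, at 1.15 to CNIH4 at -0.94 (log2 changes). In the signal recognition particle and its receptor 5 of 8 rose and 1 fell, with SRP54, the signal-binding GTPase, at 1.76 and SRP14 at -0.48. SRP9, which had not passed (log2 0.12), did so without salinomycin replicate 2 (0.17) and with scaling by library total (0.31). Among translocon partners 6 of 10 rose and 3 fell, and the ribosome-binding RRBP1 at 1.38 contrasted with TRAM1, a channel-associated protein, at -1.53. TRAM1 went from 22342 ± 682 to 7757 ± 339.9 units, opposite to SEC61A1. In the ER membrane protein complex, which inserts membrane proteins, 7 of 10 rose and 2 fell, from EMC10 at 1.01 to EMC3 at -0.56. EMC1 (log2 0.12) did not pass with upper-quartile scaling (0.03), under the replicate block (0.12), or without untreated replicate 1 (0.12) or 2 (0.11) or salinomycin replicate 1 (0.13), 2 (0.11) or 3 (0.11). EMC9 (log2 0.22), which had not passed, passed as a rise with scaling by library total (0.41) and by limma-voom (0.23). It also passed without untreated replicate 2 (0.25) or 3 (0.27) or salinomycin replicate 1 (0.27). Of 8 tethers 6 rose and 1 fell: RINT1, of the retrograde NRZ tether, was at 1.61, and GORASP1 at -0.15 turned to 0.04 with scaling by library total and did not pass under the replicate block (-0.15) or without untreated replicate 1 or 3 or salinomycin replicate 1 or 2 (log2 -0.15 to -0.13). Of 7 tested transcription factors 5 rose and 2 fell, with CREB3 at 2.32 and CREB3L1 at -2.20. XBP1 (log2 0.26) did not pass with upper-quartile scaling (0.18) or without untreated replicate 3 (0.15) or salinomycin replicate 2 (0.23).

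**Figure D4:**
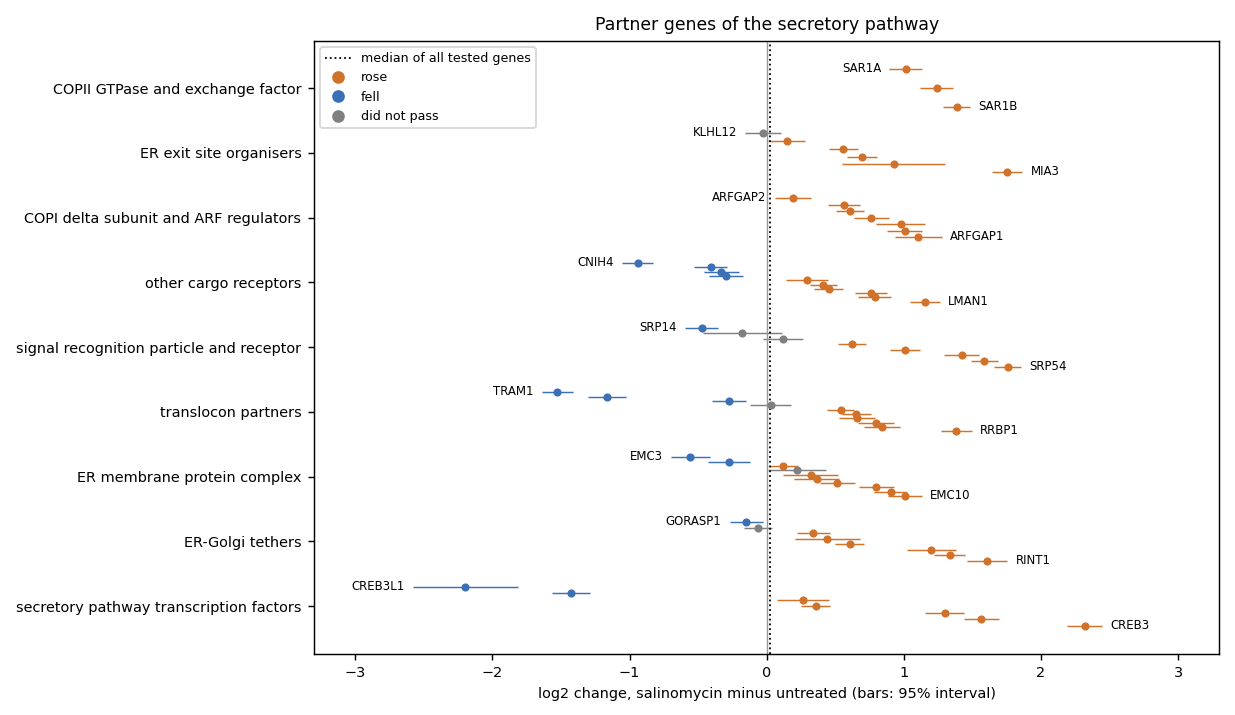
Log2 change with salinomycin (horizontal axis; bars are 95% intervals) of each tested gene in 9 lists of secretory partners, coloured by call, with the highest and lowest gene of a list named and a dotted line at the median of all tested genes. The first 3 lists hold no blue point, while TRAM1 and CREB3L1 mark the lowest values of the translocon partners and the transcription factors.

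The authors' deposited table of gene set enrichment covers the same libraries and holds overlapping genes, so it is no independent evidence. In the authors' deposited table, 9 of 10 sets named for COPI or COPII had a positive normalised enrichment score with an adjusted p under 0.05, against 5.01% of its 21624 sets. The set for vesicle transport from ER to Golgi ranked 5 by normalised enrichment score in the authors' deposited table, at 2.34. The set for COPI-independent return to the ER was the exception in the authors' deposited table, with a normalised enrichment score of -1.04 and an adjusted p of 0.607.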

How the data were processed

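RNA-seq libraries of A549 cells, 3 untreated and 3 salinomycin, were compared. Per the submitters' processing notes, GRCh38 was the build; how reads were aligned, counted, annotated and assigned to strand is not given in the sources used here. Each library has 1 column of deposited signal values, whole numbers that the authors rescaled: their totals differ by at most 0.693%, and the lowest is 1 in place of 0. The enrichment scores and p-values per gene set are deposited values of the authors, per the file headers.

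From each value 1 was subtracted. Libraries were scaled by TMM (trims of 30% of log ratios and 5% of levels), and genes with at least 10 units in 3 libraries were kept, which set 3621 aside. Log2(units + 1) was fitted with limma 3.58.1 (trended eBayes, two-sided) in R 4.3.3 with Benjamini-Hochberg adjustment over all 13049 genes, so folds understate changes of low genes. Reads were recovered from steps that rescaling left in the low values: 98.8% to 99.9% of those values came from whole reads where the factor was above 1. Where the factor is not above 1 this checks nothing. Chi-square per gene between libraries of a group was 2.86 to 6.74, so none was counted as a repeat. The fit was tested on simulated data with known changes. It recovered 23.8% of 1.2-fold, 82.9% of 1.5-fold, 94.6% of 2-fold and 100% of 4-fold changes, with 4 false calls among 119. Far fewer genes changed in the simulation than were called here, so it does not check scaling when most genes change.

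Gene positions came from GENCODE on GRCh38 and promoter letters from RefSeq on GRCh38.p14. In the annotation 19 members share 10% or more of their exon bases with another gene, and such levels are uncertain. Levels between genes were compared per kilobase of median coding-transcript length. Values per library are printed for members that changed at least 2-fold and, in each complex, for the gene with the most units, the most risen and the most fallen. Partners named are the highest and lowest of each list, and some items are not reported here. The members, lists and pairs were chosen with earlier results of these data known. Alternatives were other scalings, filters, pseudocounts, limma-voom on recovered reads, a replicate block and leaving out each library. Marker lists for A549, leukocytes, endothelium and fibroblasts were read as summed units.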

Additional observations from a re-analysis of the deposited data

How the results depend on the processing

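The 48 rises were 47 to 48 and the 13 falls 11 to 13 without any 1 library. Rises of at least 2-fold were 18 to 21 there, falls of that size 5 to 6. The choice of scaling moved the rises more. Upper-quartile scaling gave 45 rises and 15 falls, of which 16 and 6 were at least 2-fold. With library totals alone 51 members rose, 26 of them at least 2-fold, and 4 fell at least 2-fold. Library totals alone, which move the median log2 change of all genes from 0.02 to 0.21 and that of members from 0.65 to 0.84, left 8 members falling. With that scaling 0 of the SEC22, SEC61 and signal peptidase genes and 0 tethers fell, 1 TMED and 1 ER membrane complex gene fell, and 2 TRAPPII subunits rose. It also turned SEC11A to 0.0746, GORASP1 to 0.0414, and KLHL12 and USO1, neither of which had passed, to 0.164 and 0.1268. Upper-quartile scaling gave 1 TRAPPII fall and 2 tether falls. Limma-voom gave 0 signal peptidase falls. Leaving out 1 library, falls ranged from 0 to 1 in each of SEC61, TRAPPII, signal peptidase and tethers. The change of the TMED7 to TMED3 ratio, -0.07, lay between -0.2399 (without salinomycin replicate 1) and 0.0356 with 1 library left out, at 0.0356 without salinomycin replicate 2 and 0.0025 without salinomycin replicate 3. The cause was not tested for these shifts.

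The labels do not say whether the shared replicate numbers pair the libraries. Same-numbered deviations correlated at -0.178, -0.016 and -0.034, and differently numbered ones at -0.154 to 0.194. With 3 libraries a group these correlations cannot decide whether libraries were paired. With the replicate number as a block, 47 members rose and 12 fell, with 0 falls in signal peptidase and in the tethers. Among the 66 tested members, TMED5 also did not pass under the block (log2 0.16), and the other pseudocounts and median-of-ratios scaling changed the call of 0. With no filter 14 members fell, 3 of them SEC14-like. With a filter of 50 units 12 fell, since TRAPPC5 was no longer tested. The 3 libraries a group limit the precision of small changes.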
